A study of Mus musculus with 2 samples.

Results

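Amacrine cells are the inhibitory interneurons of the inner retina. Their transcription factors were followed as a list of 10 genes: Ptf1a, Prdm13, Tfap2a, Tfap2b, Tfap2c, Barhl2, Neurod2, Neurod6, Nr4a2 and Meis2. The members were chosen by name, as every probe set whose platform annotation gives 1 gene symbol and that symbol is on the list. This gave 24 probe sets of 9 of the 10 genes, out of 18193 genes in all that have a probe set with 1 symbol. The annotation used here gave no probe set for Prdm13. RNA was compared between 1 retina of a wild-type mouse embryo and 1 retina of a Sox11-/- littermate, both of C57BL/6 background and at embryonic day 18, and each was hybridised to 1 Affymetrix mouse array. The labels call the mutant loss-of-function, without naming the deleted part of the gene. A single array per genotype gives no error and allows no test, so all values below compare these 2 arrays only.

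Amacrine cells arise early in retinal development from multipotent progenitors, alongside ganglion cells, horizontal cells and cones. The bHLH factor Ptf1a commits precursors to the amacrine and horizontal fates, and Prdm13 acts downstream of it. AP-2 factors mark amacrine cells after they leave the cell cycle. Barhl2, Neurod2, Neurod6, Nr4a2 and Meis2 then help to set or mark subtypes, which use GABA, glycine or further transmitters. Sox11 is a SoxC transcription factor of differentiating neurons, and the design asks which retinal transcripts differ when it is missing.

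The list was close to level between the genotypes. Of its 24 probe sets, 19 had an intensity at or above 18.6 on at least 1 array; 18.6 is the median of all intensities and served as the low-value filter. Those 19 belonged to 8 genes. No gene value, taken from the brightest passing probe set, differed 2-fold, where 1.35% of all 11557 genes did. Gene values ran from -0.44 for Tfap2a to 0.16 for Tfap2b, as log2 ratios of knockout to wild type after 5 was added to each intensity, which shrinks the differences of dim probe sets. Their median was -0.10 against -0.01 over all genes, and 6 of 8 were below 0 against 52.1% of all genes. The clearest difference was that of Tfap2a, with all 3 probe sets lower on the knockout array, while Ptf1a was 6.68% higher.

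**Figure D1:**
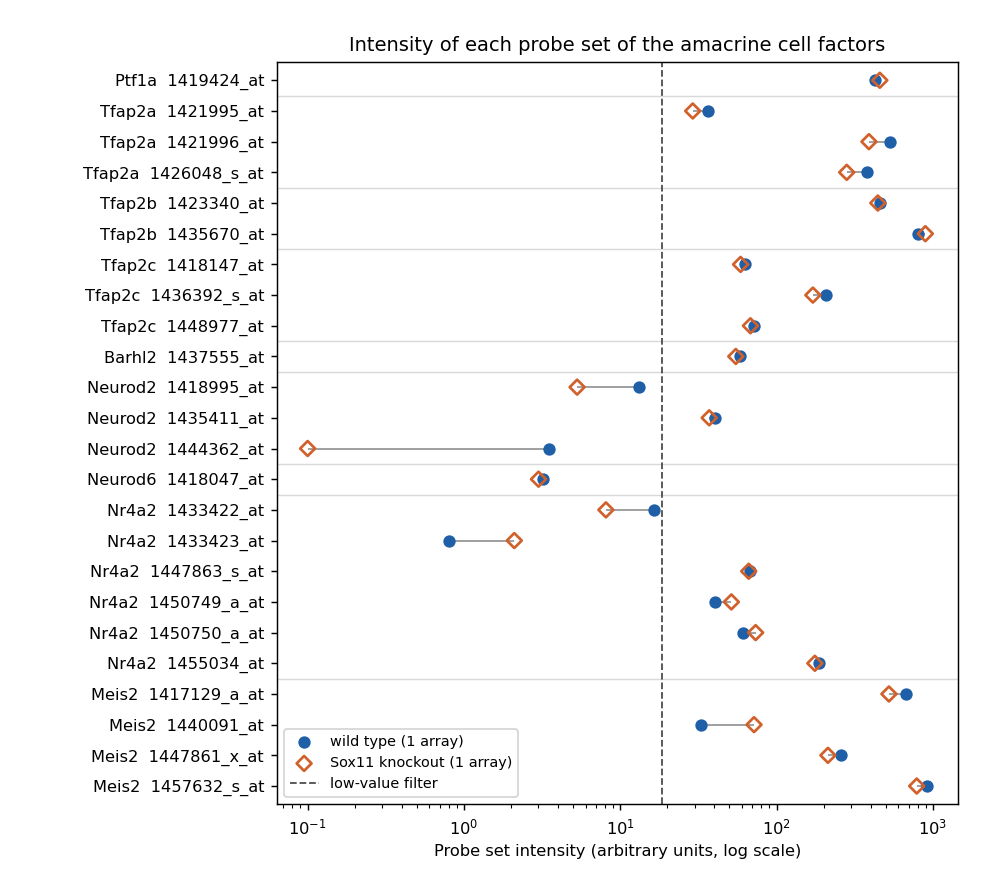
Intensity of each of the 24 probe sets on the wild-type array (filled circles) and the Sox11 knockout array (open diamonds), on a log scale in arbitrary units. The dashed line is the low-value filter of 18.6. Most pairs of symbols nearly coincide. The widest gap among probe sets past the filter is that of Meis2 probe set 1440091_at, from 33.1 to 71.8.

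Both arrays can be read against the state of the tissue. Sox11 was lower in the knockout on 5 of its 6 probe sets, from 3205.7 to 252.4 on the brightest, and higher on 1, from 328.8 to 701.7. Of 9 neural retina genes listed, 7 were named on the array and all 7 passed the filter, with a median log2 ratio of -0.10; among them Nrl, which sets rod fate, read 632.8 and 289.0. All 8 amacrine marker genes passed, with 6 below 0, or 5 after quantile normalization or loess, and a median of -0.14. Markers of some other tissues differed more than the list did. Of the neural crest and periocular mesenchyme genes 7 of 8, and of the macrophage genes 8 of 8, were higher in the knockout, with medians of 1.75 and 1.17. The macrophage gene Mpeg1, at 7.3 and 51.1, passed by its knockout value alone. Pigment epithelium genes had a median of 0.40, with 3 of 8 below 0. Among them Ttr, at 4.4 and 20.8, and Tyr, at 13.1 and 26.2, passed by their knockout value alone. Of 7 endothelium genes 2 passed, with a median of -0.21. The summed intensity of those 8 mesenchyme genes was 237.6 on the wild-type and 673.2 on the knockout array, and that of the macrophage genes was 328.5 and 706.2. In the wild type, 6 of those 8 mesenchyme genes lay below the filter, so they passed it by their knockout value alone, and the exception to the direction was Pdgfra, at 156.2 and 74.9. The embryos also differed in sex-linked RNA: Xist read 12.3 and 922.7 on its brightest probe set, and the Y-linked Eif2s3y read 214.0 and 4.7. Sex and genotype cannot be told apart here, and the part of other tissues in the values below was not tested. In whole retina, fewer cells of a type and less RNA per cell cannot be told apart either.

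Ptf1a, the factor that commits cells to the amacrine and horizontal fates, had 1 probe set, 1419424_at. It read 429.5 in wild type and 458.2 in knockout, which is 6.68% higher, a log2 ratio of 0.09. This is smaller than 0.26, the pooled SD among the ratios of a gene's own probe sets, over 5612 genes. That SD holds no spread between animals and is only a technical yardstick. The genes that work beside and above Ptf1a were near level too on their brightest probe sets. Ptf1a binds DNA in a complex with an E protein and Rbpj. Rbpj, also the DNA-binding effector of Notch signalling, read 862.1 and 1027.7, a log2 ratio of 0.25 with its 3 probe sets from 0.17 to 0.31. The E protein genes Tcf3, Tcf4 and Tcf12 had -0.18, -0.15 and -0.00. Their other probe sets reached 0.22 for Tcf3, 0.05 for Tcf4 and 0.75 for Tcf12. Rbpjl, the Rbpj paralog of the pancreatic complex, was below the filter. For the whole list of partners, 4 of 5 genes passed the filter, 3 were below 0 and none was 2-fold apart. After quantile normalization or loess, 2 of the 4 were below 0.

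Competence factors upstream of Ptf1a passed the filter in 7 of 8 cases, with a median of -0.05 and none 2-fold apart. Foxn4, the forkhead factor that turns Ptf1a on, read 366.4 and 373.9, a log2 ratio of 0.03. Rorb, a nuclear receptor that acts with it, had 0.15, and its other probe sets reached 0.44. Neurod4, a bHLH factor of amacrine and bipolar precursors, had the largest value, at -0.29, from 1311.2 to 1070.9. Six3 and Six6, homeobox genes of the eye field, had -0.15 and -0.10, with the other Six3 probe set at 0.31. Pax6 had -0.05 on its brightest probe set, but its 4 probe sets ran from -0.54 to 0.42. On this list 4 of 7 were below 0, and 3 of 7 after quantile normalization or loess.

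The AP-2 genes encode related DNA-binding proteins that act as dimers. Tfap2a, found in most amacrine cells and in horizontal cells, was lower in the knockout on each of its 3 probe sets. Probe set 1421996_at read 530.6 and 390.4, which is 26.4% lower, a log2 ratio of -0.44. Probe set 1426048_s_at read 377.3 and 281.3, which is 25.4% lower, a log2 ratio of -0.42. These probe sets gave nearly the same difference at different brightness. The dim probe set 1421995_at read 36.5 and 29.1, a log2 ratio of -0.28. Of 1438 genes with 3 passing probe sets, 16.1% had all of them below 0. Passing probe sets were split by level into 4 equal bands. In the brightest band, 95% of log2 ratios lay between -0.38 and 0.41, and both bright Tfap2a probe sets were just outside. With Meis2 probe set 1440091_at, 3 of the 19 lay outside their band's range, against 5.02% of all probe sets. Over the 5 other scalings and pseudocounts, the brightest probe set stayed between -0.46 and -0.42.

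Tfap2b, which largely overlaps Tfap2a in amacrine cells, did not show the same. Its brighter probe set 1435670_at read 798.9 and 895.8, which is 12.1% higher, a log2 ratio of 0.16. Its other probe set, 1423340_at, read 458.2 and 444.8, a log2 ratio of -0.04. Both lie within 0.26 of 0. Tfap2c, found in a subset of amacrine cells, was below 0 on all 3 probe sets, by less than Tfap2a. Its brightest, 1436392_s_at, read 208.2 and 170.9, a log2 ratio of -0.28. The other probe sets, 1448977_at and 1418147_at, read 71.3 and 68.1, and 63.0 and 58.9, with log2 ratios of -0.06 and -0.09. The size of the Tfap2c difference therefore rests on 1436392_s_at, whose suffix marks probes that can match several transcripts.

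By log2 ratio, the AP-2 genes outside the list stood further apart than those on it, but both were dim, where ratios spread more widely. Tfap2e, the gene of AP-2 epsilon, best known from the olfactory bulb, read 61.4 on the wild-type and 14.6 on the knockout array. The knockout value is below the filter, so the gene was at least 3.30-fold lower, on its 1 passing probe set. Tfap2d, the gene of AP-2 delta, known from ganglion cells, read 44.7 and 71.7, a log2 ratio of 0.63. Of all genes, 0.407% were at least 2-fold lower. Of the 5 AP-2 genes, Tfap2a, Tfap2c and Tfap2e were below 0, and Tfap2b and Tfap2d above.

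AP-2 genes are also active in surface ectoderm and in neural crest. Of 11 marker genes of surface ectoderm and corneal epithelium, 5 passed the filter, and 4 of them were below 0, with a median of -0.37. Their summed intensity was 186.7 on the wild-type and 147.0 on the knockout array. The keratins Krt5 and Krt14 and the epidermal factor Trp63 were below the filter on both arrays. Epcam, an epithelial adhesion molecule, read 42.4 and 27.9. The part of these markers in the Tfap2a value was not tested. Of the lens genes, 6 of 8 were above 0, or 5 after quantile normalization or loess; Crygd and Cryba4 passed by their knockout value alone, and Lim2 by its wild-type value. Of the neural crest and periocular mesenchyme genes, 7 of 8 were above 0, as given above, and 6 of the 8 passed by their knockout value alone. Their part in the Tfap2a value was not tested either.

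**Figure D2:**
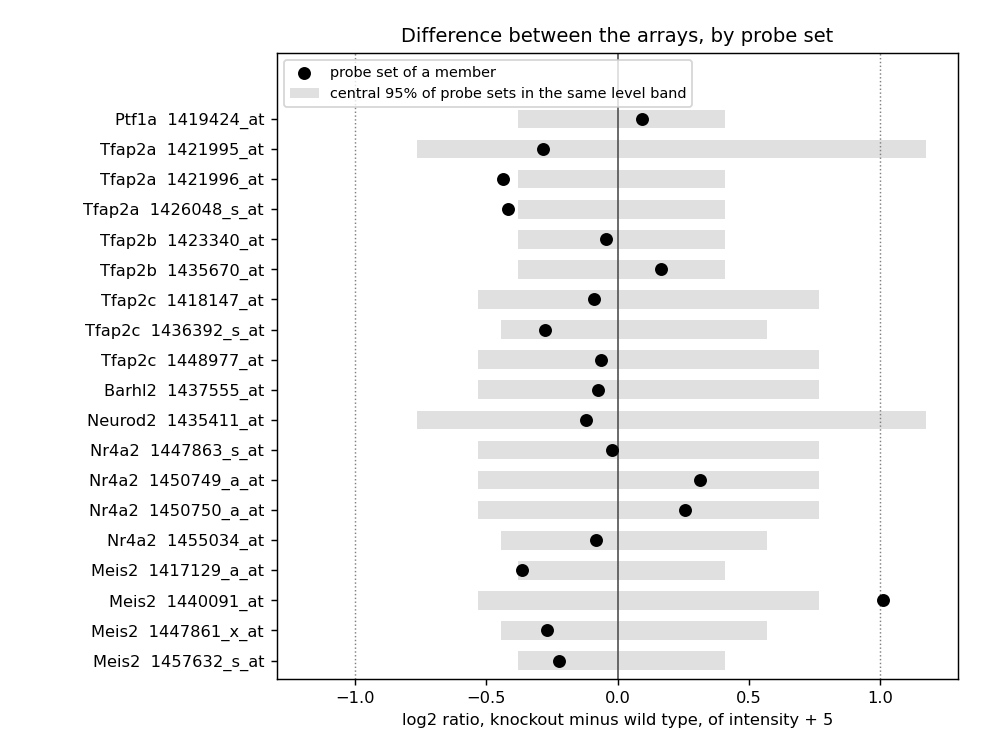
Log2 ratio of knockout to wild type for the 19 probe sets past the filter (points), with the central 95% of all probe sets in the same level band (grey bars) and dotted lines at a 2-fold difference. The bright Tfap2a probe sets, at -0.44 and -0.42, lie just left of their bar, and Meis2 probe set 1440091_at, at 1.01, lies right of its own.

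Barhl2, a homeobox gene of amacrine subtypes and some ganglion cells, had 1 probe set, 1437555_at. It read 58.0 and 54.9, which is 5.34% lower, a log2 ratio of -0.07, or -0.17 after quantile normalization and -0.16 after loess. Its paralog Barhl1 was below the filter on both arrays.

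Neurod2 and Neurod6 are bHLH genes of amacrine subsets. Neurod2 had 1 probe set past the filter, 1435411_at, which read 40.7 and 37.1, a log2 ratio of -0.12, or -0.24 after quantile normalization. Its other probe sets read 13.1 and 5.3, and 3.5 and 0.1, all below the filter, so no fold is given. Neurod6, which marks amacrine cells that use neither GABA nor glycine, read 3.2 and 3.0 on its 1 probe set and was not above the filter on either array. Among the other NeuroD and related bHLH genes, 6 of 8 could be measured, and 5 of those 6 were above 0, or 4 after centring. Neurod1, a factor of amacrine and photoreceptor precursors, was level at 2122.3 and 2135.7. Atoh7, which ganglion cells require, read higher in the knockout: 945.0 and 1731.0, a log2 ratio of 0.87.

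Nr4a2, an orphan nuclear receptor of dopaminergic and GABAergic amacrine cells, had 6 probe sets, of which 4 passed. The brightest, 1455034_at, read 186.4 and 175.9, a log2 ratio of -0.08. Probe set 1447863_s_at was level at 67.4 and 66.4. The remaining 1450750_a_at and 1450749_a_at read 60.6 and 73.5, and 40.3 and 51.4, with log2 ratios of 0.26 and 0.32. The probe sets thus differed in sign, and the median over them was 0.12. The dim 1433422_at and 1433423_at read 16.4 and 8.1, and 0.8 and 2.1, under the filter. Th, the tyrosine hydroxylase that dopaminergic cells need, was below the filter on both arrays. Nr4a1, its paralog and an immediate early gene, read 27.7 and 24.9, a log2 ratio of -0.13.

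Meis2, a TALE homeobox gene of progenitors and GABAergic amacrine cells, had probe sets that disagreed. The 3 brighter ones were lower in the knockout. Probe set 1457632_s_at read 923.0 and 789.0, 1417129_a_at read 676.7 and 524.0, and 1447861_x_at read 258.3 and 213.3. Their log2 ratios were -0.22, -0.37 and -0.27, or 14.5%, 22.6% and 17.4% lower, and all 3 names carry a suffix for probes that can match several transcripts. The fourth, 1440091_at, read 33.1 and 71.8, a log2 ratio of 1.01. It was the only probe set of the list at least 2-fold higher, where 1.47% of all passing probe sets were at least 2-fold higher. That call ended after centring, quantile normalization and loess, at 0.99, 0.91 and 0.92, and with the pseudocount at the pooled median, at 0.81; it stood without a pseudocount, at 1.12. Of 5612 genes with several passing probe sets, 0.891% had log2 ratios spread at least as far, from lowest to highest, as those of Meis2. Those genes were not matched to Meis2 by number of probe sets or by brightness, so the share does not measure how unusual Meis2 is. Which transcript 1440091_at reports was not analysed here. The TALE paralogs of Meis2 (Meis and Pknox genes) and its Pbx partners were near level on their brightest probe sets. Of 8 genes 6 could be measured, 4 were below 0, and the range was -0.30 for Pknox2 to 0.22 for Pbx3. Other probe sets reached 0.52 for Pknox1, which had -0.22 on its brightest, 0.34 for Meis1, 0.30 for Pbx2 and 0.28 for Pbx3.

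**Figure D3:**
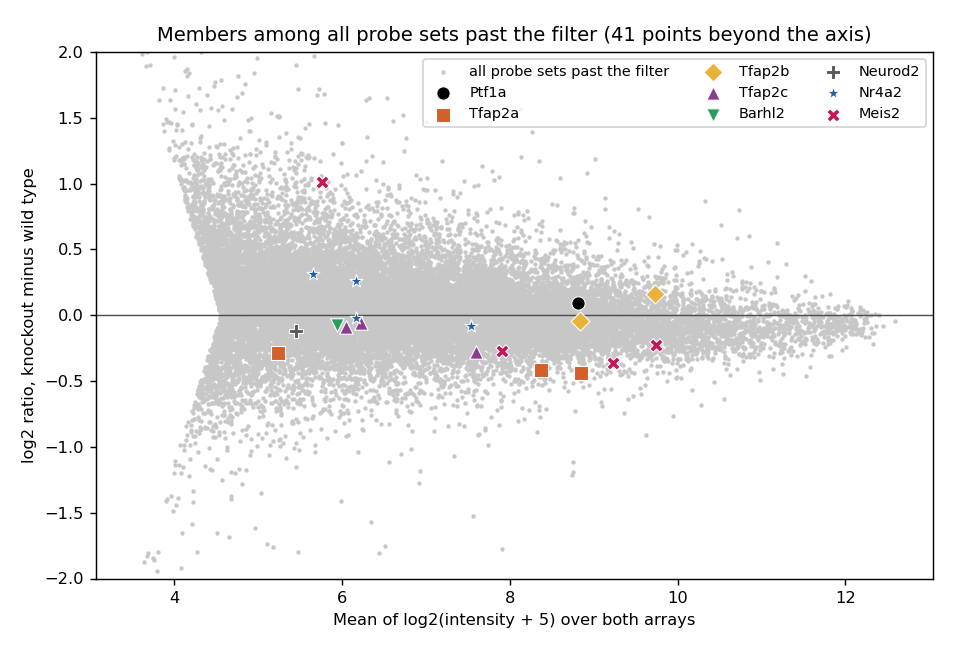
Log2 ratio of knockout to wild type against the mean of log2(intensity + 5) for all 23581 probe sets past the filter (grey) and for the 8 members measured (coloured symbols); 41 points lie beyond the axis. The members lie inside the cloud, with Meis2 probe set 1440091_at near its upper edge and the bright Tfap2a probe sets near its lower edge.

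Counted by probe set, 14 of the 19 that passed were below 0, against 44.9% of all passing probe sets, and none was 2-fold lower, against 0.399%. A ratio beyond 0.26 in either direction was found for 8 of 19, against 33.1%, and these 8 came from Tfap2a, Tfap2c, Nr4a2 and Meis2 only. Of the 5 members with several passing probe sets, Tfap2a and Tfap2c kept 1 sign, while Tfap2b, Nr4a2 and Meis2 did not; over all such genes 50% kept 1 sign. Probe sets of 1 gene share a target, so these are not 19 independent values.

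The promoter sequences of the members, taken from RefSeq on GRCm38.p6 as the 250 bases before each start site, were read for the SOX core. Windows were at hand for Ptf1a, Tfap2a (at 2 starts), Tfap2b, Prdm13, Barhl2, Neurod2, Neurod6, Nr4a2 and Meis2. The words ACAAAG and ACAATG were searched on both strands. A match was present in 3 of the 10 windows, against 25.2% of 32851 promoter windows of that length. The windows shown are those of Tfap2a and Meis2, 2 of the 3 genes with the most negative values, and of the near-level genes Barhl2 and Nr4a2. Barhl2 and Nr4a2 were the only measured members with a match, so the windows shown are no contrast between lower and near-level genes. The near-level members Ptf1a, Tfap2b and Neurod2 held no match and are not shown. Matches on either strand are in capitals.
Tfap2a, chr13:40734921-40735170, minus strand: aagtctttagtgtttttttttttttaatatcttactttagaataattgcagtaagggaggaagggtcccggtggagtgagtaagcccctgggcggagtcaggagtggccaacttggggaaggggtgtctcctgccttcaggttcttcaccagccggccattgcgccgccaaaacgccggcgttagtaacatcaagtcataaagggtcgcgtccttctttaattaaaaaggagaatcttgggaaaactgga
Tfap2a, chr13:40733796-40734045, minus strand: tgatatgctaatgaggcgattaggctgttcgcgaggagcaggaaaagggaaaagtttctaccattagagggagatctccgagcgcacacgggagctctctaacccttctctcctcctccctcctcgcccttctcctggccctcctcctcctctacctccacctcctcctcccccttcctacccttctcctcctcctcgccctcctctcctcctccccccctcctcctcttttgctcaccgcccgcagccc
Meis2, chr2:116064620-116064869, minus strand: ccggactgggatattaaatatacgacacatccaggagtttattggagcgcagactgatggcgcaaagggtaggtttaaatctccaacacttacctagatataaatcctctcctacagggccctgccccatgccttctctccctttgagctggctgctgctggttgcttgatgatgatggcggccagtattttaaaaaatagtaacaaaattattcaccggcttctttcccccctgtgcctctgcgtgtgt
Barhl2, chr5:106458167-106458416, minus strand: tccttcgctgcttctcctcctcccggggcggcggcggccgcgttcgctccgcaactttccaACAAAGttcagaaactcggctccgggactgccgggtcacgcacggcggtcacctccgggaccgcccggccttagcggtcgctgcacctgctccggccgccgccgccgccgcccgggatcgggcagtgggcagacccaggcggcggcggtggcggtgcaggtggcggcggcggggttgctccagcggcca
Nr4a2, chr2:57124004-57124253, minus strand: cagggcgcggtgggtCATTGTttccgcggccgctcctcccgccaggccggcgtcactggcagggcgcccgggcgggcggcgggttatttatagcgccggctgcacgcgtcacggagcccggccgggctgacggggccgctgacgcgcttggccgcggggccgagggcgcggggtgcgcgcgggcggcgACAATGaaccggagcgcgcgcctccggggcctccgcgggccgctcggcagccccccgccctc

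The Tfap2a and Meis2 windows held neither word. Barhl2 held 1 match and Nr4a2 held 2, and the remaining match was in the window of Prdm13. No SOX match overlapped a match to CANNTG or GCCNNNGGC. The E-box CANNTG, the word that bHLH proteins such as Ptf1a and NeuroD bind, was found in 4 of 10 windows, those of Tfap2b, Barhl2, Neurod2 and Neurod6, against 66.2% of all windows. The AP-2 word GCCNNNGGC was found in 1, that of Nr4a2, against 13.7%. These counts say only which letters lie in the windows.

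Genes that amacrine cells use once they differentiate were read beside the factors. These genes include the 8 amacrine markers given above, whose values are therefore not a second observation. Among the genes of GABA, glycine and acetylcholine handling, 5 of 10 could be measured. Of these 5, 4 were below 0, and all 5 were after quantile normalization or loess. Gad1, which makes GABA, read 325.1 and 205.3, a log2 ratio of -0.65, with its other probe set at -0.78. Slc32a1, which loads GABA and glycine into vesicles, read 107.1 and 76.2, a log2 ratio of -0.47. Gad2 and the glycine transporter gene Slc6a9 had -0.15 and -0.14, with their other probe sets at -0.43 and -0.39. Choline acetyltransferase, Chat, was below the filter on both arrays, as were Slc6a5, Slc5a7 and Th.

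Other differentiated amacrine genes were split evenly, with 6 of 12 below 0 and a median of 0.05. Pcp4, a calmodulin-binding peptide, and Npy, the gene of neuropeptide Y, read lower in the knockout, at -0.78 and -0.62. Penk and Cartpt, which encode peptide precursors, read higher, at 0.76 and 0.41. Calb2, calretinin, was level at 887.1 and 876.8.

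The other subtype factors on a list of 22 were measured in 16 cases and were above 0 in 10, with a median of 0.14. Fezf2, a zinc finger gene, read 152.1 and 314.9, a log2 ratio of 1.03. Ebf2 was at least 1.24-fold higher, from 8.4 to 23.0. The wild-type value of Ebf2 is below the filter, so of the 16 genes Fezf2 alone was 2-fold higher between values above it; on the log2 ratio alone, 0.943% of all genes were at least 2-fold higher. Ebf3, a factor of glycinergic amacrine and of ganglion cells, had 0.65, with all 3 probe sets between 0.65 and 0.79. Lower values were found for Nfix, at -0.81 with its 3 probe sets from -0.81 to -0.59, and, chosen after their values were seen, for Lhx9, at -0.50 with 4 probe sets from -0.72 to -0.46, and Lmo4, at -0.35.

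The sister fates gave other values. All 4 transcription factors of horizontal cells, which share Ptf1a and Tfap2a with amacrine cells, were above 0, with a median of 0.61. Onecut1 passed by its knockout value alone. The passing probe sets ran from 0.23 to 0.63 for Lhx1, from 0.11 to 0.43 for Prox1 and from 0.21 to 0.94 for Onecut2. For Lhx1 and Prox1 the gene value was the highest of these. These 4 genes were dim, at 14.1 to 78.9 in wild type, and dim probe sets had higher ratios in general. The median log2 ratio was 0.15 in the dimmest level band and 0.08 in the next, against -0.04 in the brightest. The central range, as used for Tfap2a, reached up to 1.18 in the dimmest band and 0.77 in the next. After quantile normalization and loess, all 4 horizontal cell factors stayed above 0, with medians of 0.52 and 0.53. Whether the horizontal cell factors differ from other genes of like brightness was not tested. Of 10 ganglion cell factors, 8 were above 0, or 7 after quantile normalization or loess, with a median of 0.26. Over all genes, 47.7% were above 0. Of the 8 amacrine members 2 were above 0, and of the other amacrine subtype factors 10 of 16, a list that shares Ebf1, Ebf3 and Isl1 with the ganglion cell list. The difference between the lists was not tested, since 1 array per genotype allows no test.

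**Figure D4:**
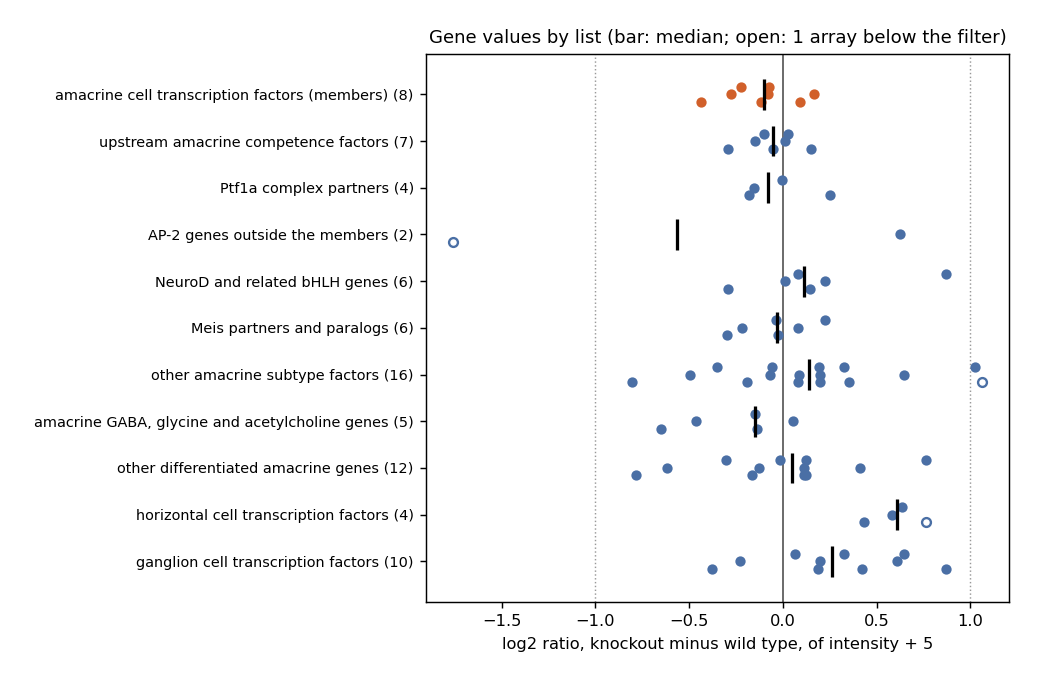
Log2 ratio of knockout to wild type for each gene past the filter, by list, with the number of genes in parentheses and the median as a black bar. The members (top row) lie between -0.44 and 0.16, all 4 horizontal cell factors lie right of 0. Open symbols are genes with 1 array below the filter, among them Onecut1 and Tfap2e, whose positions depend on the pseudocount.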

How the data were processed

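The authors deposited 1 linear intensity per probe set and array; the software behind them is not given in the sources used here. Both arrays had a mean of 99.7 after trimming 2% at each end, so they appear scaled alike. Per the labels' protocols, RNA was primed with oligo-dT, amplified and labelled as biotinylated cRNA. Detection calls were not used here.

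From these intensities, 64 control probe sets were left out, which left 45037. Ratios are knockout minus wild type on log2(intensity + 5), where 5 is the rounded 25th percentile; no further normalization was applied. A probe set passed if its higher intensity was at or above 18.6, and a gene took its brightest passing probe set, which gave 11557 genes. Where the dimmer value was under 18.6, a bound against 18.6 is given. GEO's platform annotation named 34945 probe sets with 1 symbol, 932 with several, which were not used, and 9160 with none. No column lay outside the series. Named are all members and, per list, up to 4 genes with the largest ratios, beyond single comparisons in the text. The members and lists were chosen with earlier results of these data known. Arithmetic used pandas 2.3.3 and statsmodels 0.14.6, and was tested on simulated data. The number of arrays limits the precision. Alternatives were centring, quantile normalization, loess (span 0.3), omitting the pseudocount, the pooled median as pseudocount, no filter, a filter at 109.4, leaving out probe sets with an s, x or a suffix, and the median over probe sets.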

Additional observations from a re-analysis of the deposited data

How the results depend on the processing

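The median of the members stayed between -0.17 and -0.07 over the 9 alternatives, and 4 to 7 members were below 0, of the 6 to 9 that could be measured. No member was 2-fold apart in any of them, except that 1 was when probe sets with an s, x or a suffix were left out: Meis2 then took its value, 1.01, from 1440091_at, against -0.25 to -0.16 under the others. Of 70 gene values under the alternatives, 2 changed sign, Meis2 there and Nr4a2 with the median over probe sets, at 0.12. None of the 19 passing probe sets changed sign under the 5 scalings and pseudocounts. No paired analysis was possible because each genotype had 1 array. Dim signal limits Neurod6, and the lower probe sets of Neurod2 and Nr4a2, which lay under 18.6 on both arrays.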

Other observations

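Immediate early genes, which include the Nr4a2 paralogs, passed the filter in 7 of 12 cases, with a median log2 ratio of 0.02. Fos and Egr1, transcription factor genes induced within minutes of a stimulus, read 18.8 and 27.2, and 28.8 and 40.3, with log2 ratios of 0.44 and 0.42. Dusp1, a phosphatase gene, read 396.9 and 315.2, a log2 ratio of -0.33. Of the genes listed for brain tissue outside the retina, 2 passed the filter, Dlx1 and Dlx2. These homeobox genes are also active in ganglion cells and in amacrine and horizontal cells. They read 32.2 and 62.2, and 25.1 and 47.1, with log2 ratios of 0.85 and 0.79.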
